A study of Mus musculus with 2 samples.

Results

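Plasma cells and plasmablasts were taken from the mediastinal lymph node as every deposited cell with at least 1 UMI (1 counted RNA molecule) of Jchain, the joining chain of secreted IgM and IgA, and at least 1 UMI of Sdc1 (CD138) or Tnfrsf17 (BCMA), surface proteins of antibody-secreting cells. These measured values chose 57 of 18613 cells, so the levels of the 3 genes are a description of the choice and not a result. Of the 57 cells, 44 came from the library without butyrate, 0.455% of its 9681 cells (95% exact interval 0.330 to 0.610), and 13 from the library with butyrate, 0.146% of 8932 cells (0.0775 to 0.249). On the log2 scale the share with butyrate stood at −1.64 relative to the share without.

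The study asked how butyrate, a short-chain fatty acid, acts on the lymph node that drains the lung in allergic asthma. WT mice of the strain C57/B6J received 50 µg of ovalbumin (OVA) with alum into the peritoneum on days 0 and 7 and OVA into the nose on days 14 to 16, and nodes were collected on day 17. Mice over all experiments were 5 to 13 weeks old, and the labels give no age for the pooled mice. Both groups had this treatment, 1 group also received butyrate (C4 in the labels), and no mice without OVA were analysed here. Nodes of 4 mice were pooled into 1 droplet library per group, so a difference between the libraries had no replicate, no test was made, and every interval below covers counting error only.

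A B cell that becomes a plasmablast, the dividing antibody-secreting stage, switches on the transcription factors Prdm1 and Xbp1, enlarges its endoplasmic reticulum (ER) and loses the genes of the B cell and of antigen presentation. It then leaves the cell cycle, changes its homing receptors and may settle as a plasma cell in bone marrow, mucosa or inflamed tissue. In a draining lymph node both stages are found after immunization.

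The libraries held 59176459 and 58381292 UMIs, with medians of 5140 and 5651 per cell. Levels are given as CPM, a gene's UMIs per 1e+06 UMIs that are not immunoglobulin, since antibody transcripts took up to 71.0% of a cell. Log2 ratios were computed after 10 CPM were added to both values, which understates changes of low genes. Levels are compared for the same gene between cells, never between genes.

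Most of the chosen cells carried the plasma cell program, and 7 carried only part of it or none. Xbp1, the factor that builds the secretory apparatus, had 5 or more UMIs in 41 of 44 cells without butyrate, where it ranged from 5 to 96 with a median of 28, and in 9 of 13 with butyrate, where it ranged from 7 to 178 with a median of 39. These 41 and 9 cells, whose Xbp1 level is therefore part of their choice, are called secretory cells below; this division was made after the data were seen. Mzb1, an ER chaperone of B-lineage cells, was found in every one of them, with medians of 141 and 82 UMIs.

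Of the 3 cells without butyrate under this Xbp1 level, 2 had 1 Jchain UMI, no Cd74 and 4 and 6 UMIs of the T cell gene Cd3e. The third had most of its heavy chain UMIs from Ighe, the constant gene of IgE, together with 72 UMIs of Cd74, the MHC class II invariant chain, and 5 of Ms4a1 (CD20), a surface protein of B cells. All 4 such cells with butyrate had most heavy chain UMIs from Ighg1 and held 24, 70, 18 and 8 UMIs of Ms4a1, 151, 667, 321 and 216 of Cd74, and 35 to 42 distinct cell cycle genes. Their immunoglobulin share was 0.700% to 4.40%, against 10.9% to 71.0% in the secretory cells. The same 4 cells held 7, 50, 39 and 63 UMIs of Mzb1, against 52 to 299 in the secretory cells with butyrate. They held 6, 23, 31 and 52 UMIs of Jchain. A secretory cell with butyrate held 25 UMIs of Ms4a1. By Xbp1 and immunoglobulin share the 7 cells went against the label, while Mzb1 and Ms4a1 of the 4 overlapped the secretory cells. The results below are given for the secretory cells, and for gene groups the values over all 57 cells stand beside them.

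**Figure D1:**
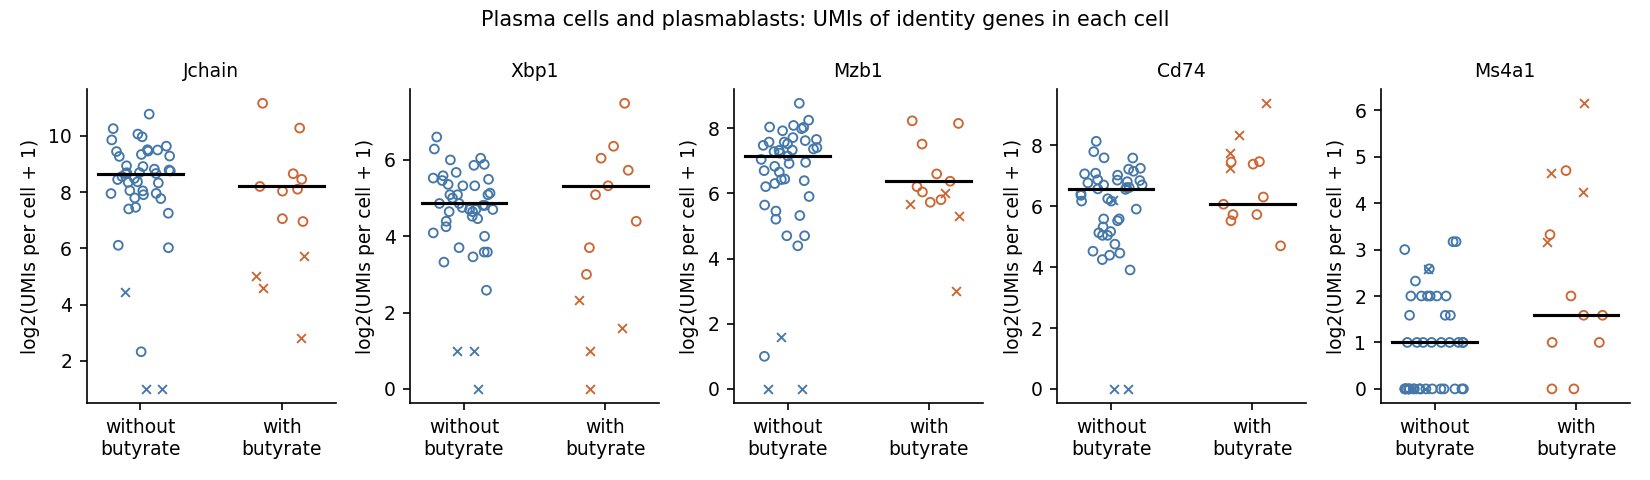
UMIs per cell of Jchain, Xbp1, Mzb1, Cd74 and Ms4a1, as log2 of UMIs plus 1, in each of the 44 cells without and 13 cells with butyrate. Circles are cells with 5 or more Xbp1 UMIs, crosses the 7 others and black lines the medians of the circles. The 3 crosses without butyrate have 0 to 2 Mzb1 UMIs, and the 4 with butyrate have 7 to 63, with 8 to 70 of Ms4a1.

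Cells just outside the rule were Jchain-positive cells without Sdc1 or Tnfrsf17, 312 without and 115 with butyrate, of which 247 and 80 had a single Jchain UMI. Among them 35 and 14 had 10 or more Jchain UMIs, and of these 10 and 3 had 5 or more Xbp1 UMIs. A Jchain UMI was also found in 2.47% and 0.706% of T cells, which do not make it, at medians of 5697.5 and 6619 UMIs per cell, so 1 Jchain UMI is read as background here. The libraries shared 25 barcode sequences, 1 of them in a chosen cell.

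The secretory machinery set these cells apart from the other B cells of the node in both libraries. Other B cells were the 4469 and 4230 cells with UMIs of at least 2 listed B cell markers, among them Cd79a, Cd79b and Ms4a1, and none of Cd3e. Of 2498 genes with 50 or more UMIs in the chosen cells, 21.5% were 2-fold or more higher in the secretory cells of both libraries and 5.88% lower, and over all 57 cells the shares were 18.9% and 2.92%. Since genes had to reach 50 UMIs in the chosen cells themselves, genes that these cells lack were not counted, and the shares lean toward higher calls. Of the listed genes 100 of 114 secretory, but 6 of 10 MHC class II and 6 of 19 B cell identity genes were counted. Of the 100 counted secretory pathway genes 86 were higher and 0 lower in the secretory cells, and 79 and 0 over all chosen cells. Their median log2 ratio in the secretory cells was 2.42 without and 2.48 with butyrate, against 0.30 and 0.33 over all 2498 genes. Summed, they took 87570 CPM without and 86800 CPM with butyrate, against 9479 and 9891 CPM in other B cells.

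Chaperones and disulfide enzymes of the ER lumen, which fold antibody chains, differed most among the 5 secretory groups, with 23 of 25 genes higher and medians of 3.43 and 2.93 (22 genes, 3.38 and 2.25 over all chosen cells). Hsp90b1, which encodes the chaperone GRP94, stood at 10210 and 7675 CPM against 336.5 and 351.8 in other B cells, log2 ratios of 4.88 and 4.41. Hspa5, the chaperone BiP that holds unassembled heavy chains, stood at 3451 and 2245 CPM, ratios of 3.15 and 2.44. Both were found in every secretory cell of both libraries. Creld2, an ER-stress-induced disulfide isomerase, had ratios of 5.42 and 4.56, Prdx4, a peroxidase of the ER, 4.56 and 4.41, and Fkbp11, a prolyl isomerase, 5.28 and 5.83. The members outside the call were Ero1lb, an oxidase that recharges disulfide enzymes, at 0.90 and 1.51, and Dnajb9, a co-chaperone of BiP, at 2.29 and 0.68.

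Signal peptide and translocation genes, which carry the nascent chain into the ER, were higher in 20 of 23 cases, with medians of 2.40 and 2.62 (19 genes, 2.36 and 2.03 over all chosen cells). Sec11c, a catalytic subunit of the signal peptidase, stood at 3195 and 3679 CPM against 196.2 and 183.4, and Ssr4, a translocon-associated subunit, at 3371 and 3548 against 245.0 and 254.2. Both were found in all 41 and 9 cells. N-glycosylation genes were higher in 13 of 15 cases (medians 1.75 and 1.91, and 11 genes, 1.72 and 1.24 over all chosen cells), among them Ddost, a subunit of the oligosaccharyltransferase, at 3.81 and 3.61. Genes of transport between ER and Golgi were higher in 19 of 23 cases (medians 1.95 and 2.17, and 17 genes, 1.91 and 1.5 over all chosen cells), led by Lman1, a cargo receptor, at 4.43 and 3.91.

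Of the genes of the unfolded protein response and ER-associated degradation 11 of 14 were higher, with medians of 2.38 and 2.25 (10 genes, 2.33 and 1.48 over all chosen cells). Derl3, a channel component of degradation, had ratios of 5.11 and 4.82 and Edem1, which marks misfolded glycoproteins, 4.79 and 4.89. Atf6, a stress sensor cleaved in the Golgi, had 1.34 and 1.91. Ppp1r15a, which restores translation after stress, was not called, at −0.04 and −1.25, and Ddit3, the stress-induced factor CHOP, had too few UMIs, at 24.4 and 31.2 CPM against 41.3 and 43.6 in other B cells.

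The promoters of these folding genes are shown because Xbp1 and Atf6 act through 2 short DNA elements found in them, the ER stress response element (ERSE, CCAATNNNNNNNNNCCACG) and the unfolded protein response element (UPRE, TGACGTGG). Both were searched on both strands in 250 bases before to 50 after the start of 27025 RefSeq mouse promoters (GRCm38.p6); a match is a description of the letters and not a bound site. An ERSE was present in 0.137% of all promoters, in 36.4% of the 22 folding genes with a promoter (8 genes) and in 10.2% of the 98 secretory genes with one, and in none of the 7 MHC class II, 13 B cell identity, 40 cell cycle and 10 plasma cell factor promoters. A UPRE was present in 0.714% of all promoters and in 5.10% of the 98. The 250 bases before the start, on the strand of the gene, are given 5′ to 3′ with the letters fixed by the element in capitals.
Hspa5 (chr2:34771840-34772089, plus strand, 1 ERSE): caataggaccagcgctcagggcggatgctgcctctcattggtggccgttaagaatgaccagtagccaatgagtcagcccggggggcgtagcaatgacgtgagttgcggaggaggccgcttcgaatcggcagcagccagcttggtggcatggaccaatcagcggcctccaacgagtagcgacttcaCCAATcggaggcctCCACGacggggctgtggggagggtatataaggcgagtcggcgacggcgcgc
Hsp90b1 (chr10:86705445-86705694, minus strand, 2 ERSE, 1 in each orientation): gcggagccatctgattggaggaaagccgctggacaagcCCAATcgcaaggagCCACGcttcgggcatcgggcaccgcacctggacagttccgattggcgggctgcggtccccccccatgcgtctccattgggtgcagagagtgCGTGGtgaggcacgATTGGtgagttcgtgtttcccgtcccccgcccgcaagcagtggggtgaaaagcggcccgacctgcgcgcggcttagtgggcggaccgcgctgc
Derl3 (chr10:75893148-75893397, plus strand, 1 ERSE in reverse orientation): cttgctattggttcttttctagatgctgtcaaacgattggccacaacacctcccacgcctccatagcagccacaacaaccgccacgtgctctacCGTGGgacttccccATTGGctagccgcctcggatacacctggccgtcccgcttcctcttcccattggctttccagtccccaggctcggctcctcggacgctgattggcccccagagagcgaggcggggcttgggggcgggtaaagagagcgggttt
Txndc5 (chr13:38527915-38528164, minus strand, 1 UPRE): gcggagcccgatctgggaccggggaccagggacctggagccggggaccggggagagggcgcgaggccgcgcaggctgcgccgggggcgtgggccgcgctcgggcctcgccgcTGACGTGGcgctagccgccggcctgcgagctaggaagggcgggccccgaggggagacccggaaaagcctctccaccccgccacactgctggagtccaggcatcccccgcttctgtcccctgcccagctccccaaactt
The 10 secretory genes with an ERSE were Calr, Canx, Creld2, Derl3, Dnajc3, Ero1lb, Hsp90b1, Hspa5, Pdia6 and Syvn1; 8 of them were higher than in other B cells in both libraries, with median ratios of 3.29 and 2.73. The 3 counted genes with a UPRE, Txndc5, Txndc11 and Copb2, were all higher, with medians of 3.65 and 2.76, and of the 71 with neither element 59 were higher, with medians of 2.29 in each library. Genes without either element thus also stood above other B cells. Neither element was found in the promoters of Xbp1, Prdm1, Irf4, Jchain, Sdc1, Tnfrsf17, Slpi or Ly6c2.

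Plasma cell factors were higher in 8 of 10 cases, with medians of 3.01 and 3.30 (7 genes, 2.96 and 2.38 over all chosen cells). One of the 8 was Xbp1, by which the secretory cells were chosen. Prdm1, which encodes Blimp-1 and silences the B cell program, was found in 22 of 41 and 8 of 9 cells, at 83.3 and 106.0 CPM against 1.89 and 1.49 in other B cells. Eaf2, an elongation factor, had ratios of 5.4 and 5.15, Fam46c, a poly(A) polymerase that stabilizes secretory mRNA, 4.91 and 5.33, and Ell2, which favours the secreted form of heavy chain mRNA, 3.05 and 3.27. Irf4, needed for the plasma cell fate, was 1.64 and 1.21 above other B cells, which also express it.

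Antigen presentation and B cell identity were lower. All 6 counted MHC class II genes were called lower in the secretory cells, with medians of −2.78 and −3.33. H2-Aa, the alpha chain of I-A, stood at 510.1 and 355.4 CPM against 4827 and 5476, and H2-DMb2, of the peptide loader, at 27.3 and 24.9 against 547.6 and 624.2. Cd74 was the least reduced, at 5381 and 5200 CPM against 15580 and 17310, and was found in every secretory cell. Over all chosen cells the MHC class II median with butyrate was −1.44, with the 4 Ms4a1-rich cells included.

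Of the 6 counted B cell identity genes 5 were lower, with medians of −2.85 and −1.90 (5 genes, −2.83 and −1.44 over all chosen cells). Ebf1, a founding factor of the B lineage, stood at 54.6 and 37.4 CPM against 1278 and 1344, and Irf8 at 24.4 CPM and 0 against 436.9 and 458.0. Pax5, which maintains B cell identity, had UMIs in 3 of 41 and 1 of 9 cells, and Bcl6, a factor of the germinal center, in none. Cd79a and Cd79b, the signalling chains of the B cell receptor, were still found in 40 and 41 of 41 cells and in all 9, at ratios of −2.46 and −1.90 and of −1.43 and −1.46. Among the genes lowest by the ratio nearer 0 over all chosen cells were also Btg1, an anti-proliferative gene, at 90.5 and 18.7 CPM in the secretory cells against 1526 and 1486, and Ptprc (CD45), at 137.9 and 124.7 against 665.8 and 709.8.

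**Figure D2:**
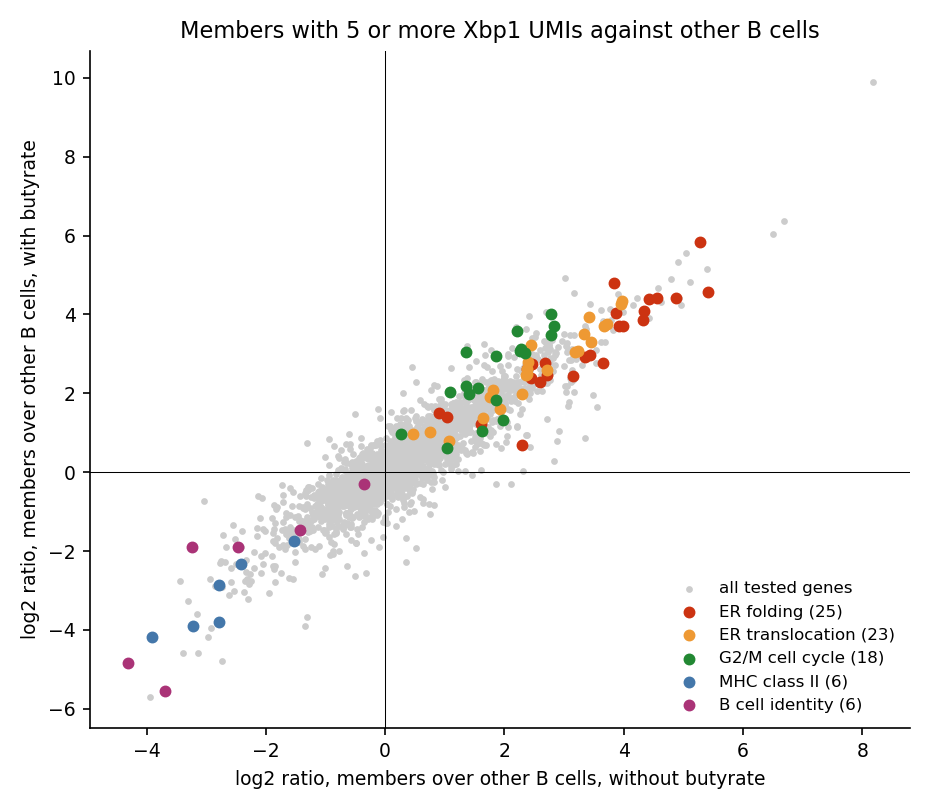
Log2 ratio of each of the 2498 genes in cells with 5 or more Xbp1 UMIs over other B cells, without butyrate on the horizontal and with butyrate on the vertical axis. Coloured points are named gene lists with their gene number; ER folding genes lie at the upper right (medians 3.43 and 2.93), MHC class II genes at the lower left (medians −2.78 and −3.33).

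The secretory cells ranged from dividing to non-dividing, and the antibody share rose as cell cycle genes fell. With a cell called cycling at 5 or more of 44 listed cell cycle genes, 22 of 41 were cycling without butyrate (53.7%, exact interval 37.4 to 69.3) and 6 of 9 with butyrate (66.7%, 29.9 to 92.5), against 15.8% and 17.7% of other B cells. With every cell sampled down at random to 2000 UMIs, which 1 secretory cell without butyrate did not reach, the shares were 32.5% of 40 and 33.3% of 9, against 2.68% and 1.57%. So few cells could not show a difference in cycling between the libraries. Over all chosen cells the unthinned shares were 52.3% and 76.9%, since the 4 Ms4a1-rich cells with butyrate were all cycling.

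Genes of G2 and mitosis were higher than in other B cells in 16 of 18 cases (medians 1.86 and 2.56) and S phase genes in 2 of 11 (0.85 and 0.41), near the 21.5% of all genes. Over all chosen cells 16 (1.81 and 3.07) and 5 (0.96 and 1.81) were higher. Top2a, which untangles replicated DNA, ranged from 0 to 37 UMIs with a median of 0 without butyrate and from 0 to 43 with a median of 0 with butyrate, so a few cells held most of it. Mki67, a nuclear protein of dividing cells, was found in 26 of 41 and 6 of 9 cells.

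Without butyrate, the immunoglobulin share of the 22 cycling cells ranged from 10.9% to 55.8% with a median of 27.8%, and that of the 19 others from 31.4% to 71.0% with a median of 56.7%. The groups overlapped, and most non-cycling cells lay above most cycling cells. The median number of non-immunoglobulin UMIs was 20060 in cycling and 10560 in other cells, while secretory genes took similar medians of 83200 and 93340 CPM. Cycling was called here without thinning, and a cell with more UMIs passes that rule more easily. Part of these differences may therefore come from the rule, and the split was not repeated on thinned cells. Over the 41 cells of this 1 library Spearman's rho of the immunoglobulin share was −0.72 with cell cycle CPM and −0.87 with non-immunoglobulin UMIs; the 3 measures share each cell's UMI total. With butyrate the 6 cycling cells had shares of 21.0% to 51.7% and the 3 others 46.9% to 64.9%.

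**Figure D3:**
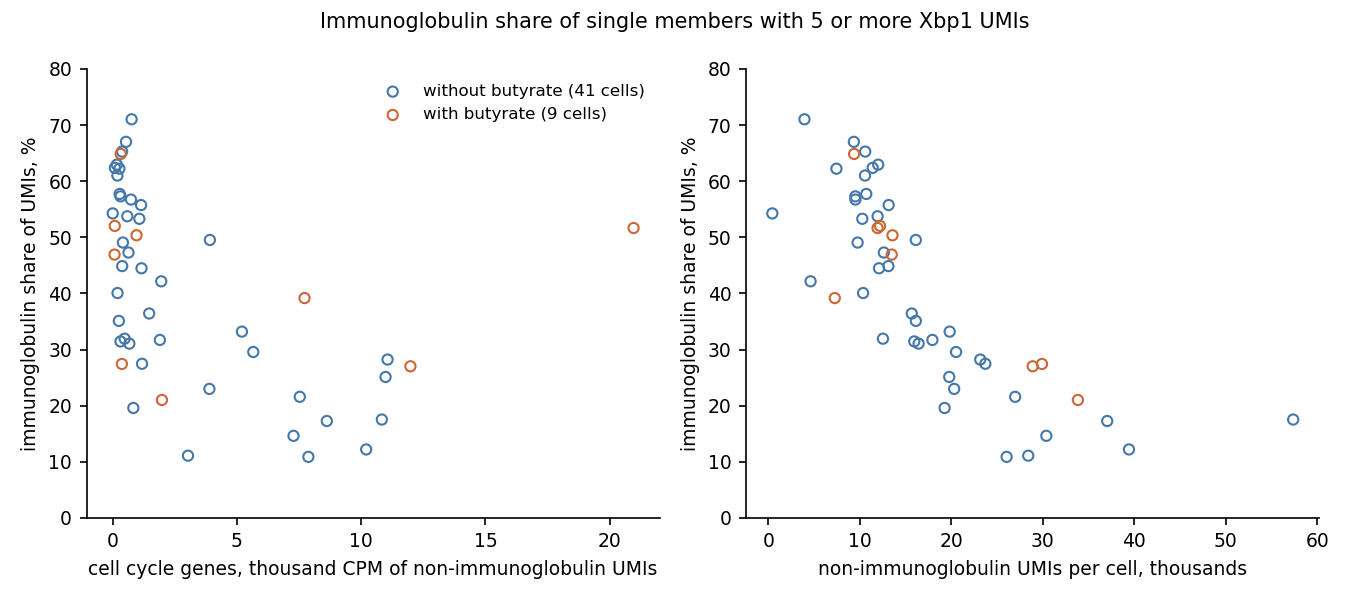
Immunoglobulin share of UMIs in percent (vertical axes, from 0) against cell cycle CPM (left) and non-immunoglobulin UMIs (right), both axes divided by 1000, for the 41 cells without (blue) and 9 with butyrate (orange) that have 5 or more Xbp1 UMIs; each circle is a cell. The highest share, 71.0%, lies among the smallest cells and the lowest, 10.9%, in a cycling cell.

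The heavy chain that a secretory cell expressed went with other genes, and this bears on the comparison of the libraries. By the constant gene with most UMIs, which held at least 94.0% of the heavy chain UMIs of each such cell, the 41 cells without butyrate were 14 Ighg2c, 11 Ighm, 9 Ighg1, 5 Ighg2b, 1 Igha and 1 Ighg3. The 9 cells with butyrate were 6 Ighm, 2 Igha and 1 Ighg2b, with no Ighg1 or Ighg2c cell. The cells of a class share 1 library and may share a clone, so the values below describe these cells and were singled out after they were seen.

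Slpi, a secreted inhibitor of neutrophil proteases and the gene most above other B cells by the named rule, followed the class. Without butyrate its UMIs in the 9 Ighg1 cells were 49, 62, 80, 110, 202, 481, 655, 663 and 684, and in the 11 Ighm cells they were 0 in 6, 1 in 3 and 2 in 2. By level, every Ighg1 cell, from 3914 CPM up, lay above every Ighm cell, up to 111.6 CPM, and Slpi was the only gene to do so of 1649 with 50 or more UMIs in these 4 classes (0.0606%). The reverse was seen for no gene. The 5 Ighg2b cells held 6, 34, 56, 68 and 377 UMIs, while the 14 Ighg2c cells ranged from 0 to 2163 with a median of 3, so that class overlapped both others, and its highest cell held 36.0% of all Slpi UMIs of the secretory cells without butyrate. With butyrate the 6 Ighm cells held 0 in 5 and 1 in the sixth, the Ighg2b cell 7, and 1 of the 2 Igha cells 292. The 4 Ms4a1-rich Ighg1 cells, outside the secretory cells, held 1, 320, 63 and 23.

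Among the 4 classes with 5 or more cells without butyrate, other genes highest in the Ighg1 cells were Tmem176b and Tmem176a, membrane proteins of the ER and endosomes. They stood at 681.5 and 666.0 CPM, each in 8 of 9 cells. In the next class, Ighg2b, they stood at 119.9 and 279.7 CPM, and in Ighm cells at 62.5 and 40.2. Their Cd74 stood at 9301 CPM against 4716 in Ighm, 2677 in Ighg2b and 4710 in Ighg2c cells. Single cells overlapped, as 1 Ighg1 cell held 34 Cd74 UMIs among 12518 non-immunoglobulin UMIs and 1 Ighm cell 192 among 23150. Dnajb9 stood at 604.1 CPM against 196.3, 169.8 and 281.6, and the summed ER folding genes at 68470 CPM against 43970, 40580 and 37160. A few Ighg1 cells carried that sum. In the 9 cells the folding genes took 28660, 34860, 39610, 44000, 44740, 66950, 74170, 114300 and 115900 CPM. Single Ighm cells ranged from 26900 to 85350 CPM, so the classes overlapped.

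Cxcr3, the chemokine receptor for interferon-induced ligands of inflamed tissue, was found in 10 of 14 Ighg2c cells with 1 to 6 UMIs and in 1 of 5 Ighg2b cells with 3. It was found in none of the 11 Ighm, 9 Ighg1, 1 Igha and 1 Ighg3 cells without butyrate, nor in any of the 9 secretory cells with butyrate. Cd28, a costimulatory receptor that plasma cells can also use for survival, was found in 13 of 14 Ighg2c cells, where it ranged from 0 to 10 UMIs with a median of 3, and in 5 of 5 Ighg2b cells, with 1, 4, 7, 16 and 19. It was found in 4 of 9 Ighg1 cells, with at most 4 UMIs, and 4 of 11 Ighm cells, with at most 2. The Ighg2b cell with 19 also held 4 Cd3e UMIs, and Cd28 had a UMI in 63.7% of T cells and 1.41% of other B cells of that library. Summed T cell markers stood at 56.3 CPM in the Ighg2c cells, about the 53.5 CPM of the Ighm cells, and at 779.0 CPM in the Ighg2b cells. Tbx21, which encodes T-bet, had 1 UMI, in an Ighg2c cell.

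Every gene is highest in 1 class, so such a place is a description. By the ratio to the next class Sfn led in Ighg2c cells (364.0 CPM, 10 of 14 cells), before Egr1, an immediate early factor (485.3 CPM, 14 of 14). Ifitm3, an interferon-induced membrane protein, ranked 4, at 359.6 CPM in 8 of 14 cells, against 162.6 in Ighg1 cells. Fosb, also an immediate early factor, ranked 6, at 1556 CPM in 14 of 14, against 751.2 in Ighg1 and 729.1 in Ighg2b cells. Summed interferon response genes stood at 1841 CPM in Ighg2c, 1608 in Ighg2b, 1549 in Ighg1 and 954.8 in Ighm cells. Ighm cells were highest in Tnfrsf17, a gene the choice used, at 178.5 CPM in 6 of 11 cells. They were also highest in Lgals1, a secreted galactoside-binding lectin, at 602.3 CPM against 255.6 in the next class, Ighg1. Ly6d, a surface protein of lymphoid cells, stood at 2904 CPM against 1417 in the next class, Ighg2c. Of the Ighm cells 9 of 11 were cycling, against 4 of 5 Ighg2b, 6 of 14 Ighg2c and 3 of 9 Ighg1 cells. These counts were not thinned, and cells with more UMIs pass the rule more easily. In the same order the median non-immunoglobulin UMIs were 19808, 13143, 12352.5 and 12518. Summed cell cycle genes took 5091, 6322, 3570 and 4073 CPM, highest in Ighg2b cells.

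**Figure D4:**
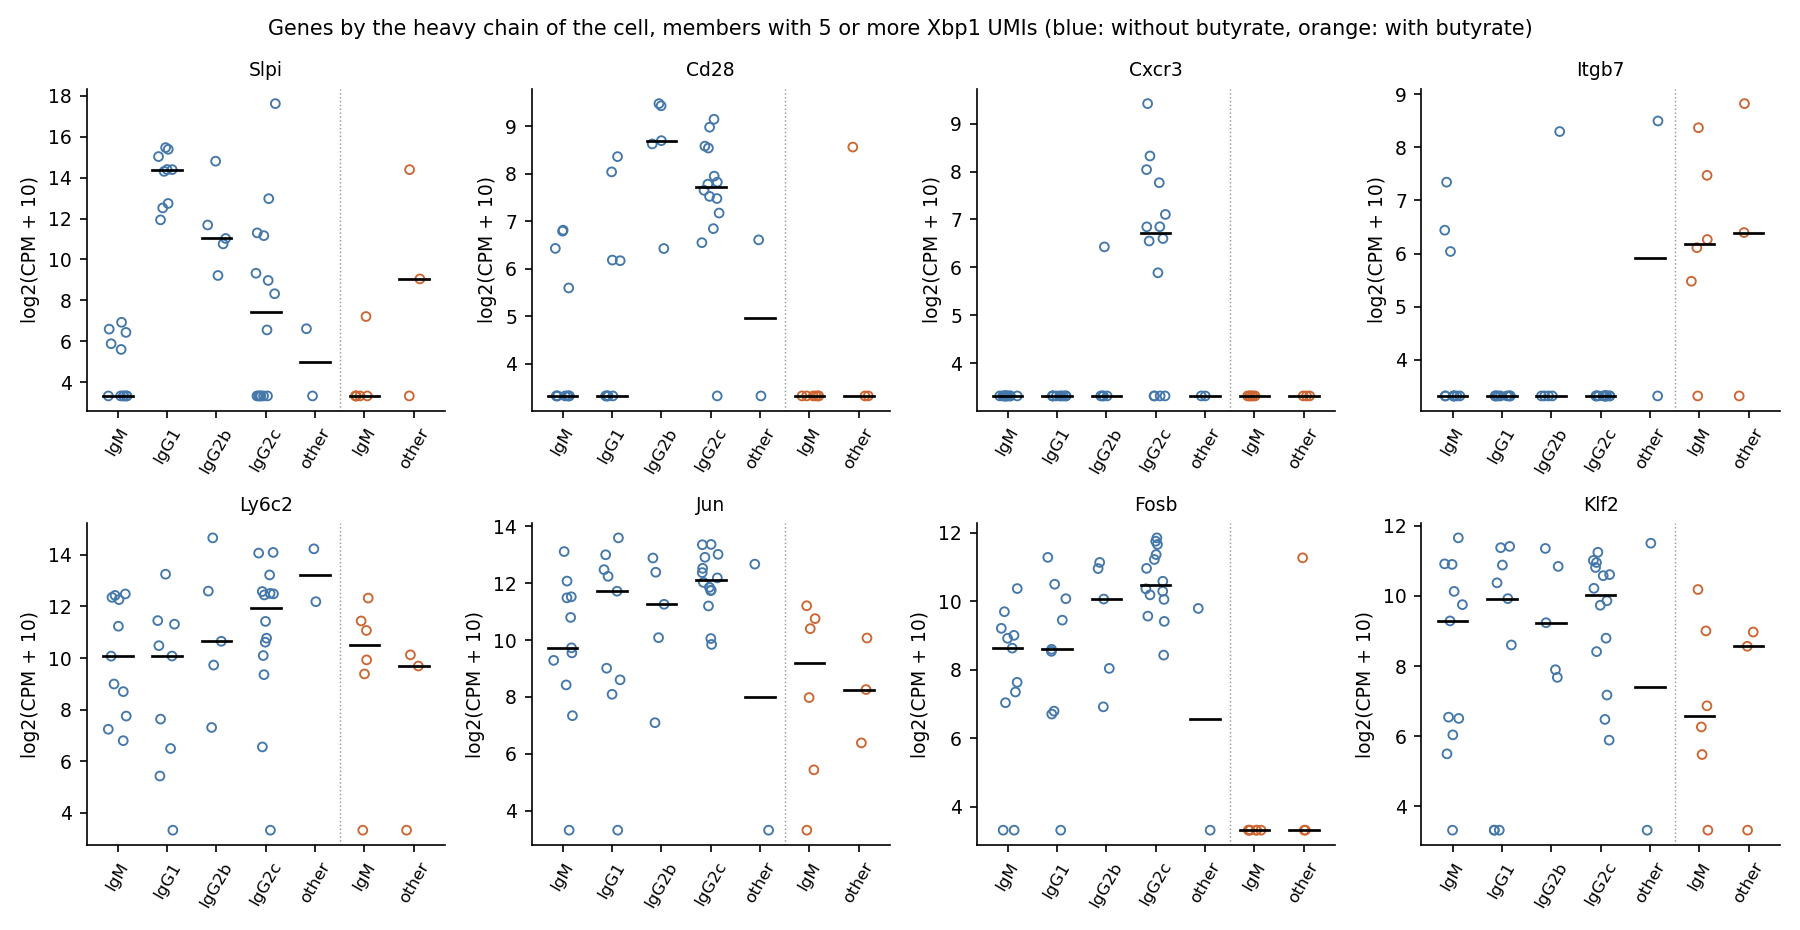
Level in each secretory cell, as log2 of CPM plus 10, by the class of its heavy chain, for 8 genes; blue without butyrate (11 IgM, 9 IgG1, 5 IgG2b, 14 IgG2c and 2 other cells), orange with butyrate (6 IgM and 3 other cells), black lines medians. Slpi is apart in IgG1 and IgM cells, Cxcr3 lies in IgG2c cells and 1 IgG2b cell, and Fosb is at 0 in all 6 IgM cells with butyrate.

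Homing receptors of the lymph node were low in the secretory cells. Of the 11 chemokine receptors listed, 2 had enough UMIs and both were lower than in other B cells, also over all chosen cells: Cxcr4, which guides cells to bone marrow, at 64.7 and 18.7 CPM against 146.1 and 163.4, and Gpr183, an oxysterol receptor of follicle borders, at 31.6 and 74.8 against 253.9 and 305.6. Ccr7, the receptor for lymph node chemokines, had UMIs in 5 of 41 cells and 0 of 9, at 14.4 CPM without butyrate against 156.2 in other B cells. S1pr1, the egress receptor, stood at 11.5 and 12.5 against 123.3 in each library. Ccr10, a receptor for mucosal chemokines, had 11 UMIs in 5 cells without butyrate and 17 with butyrate, all in 1 Igha cell.

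Of 11 counted adhesion genes 3 were higher, in the secretory and in all chosen cells, a share near the 21.5% of all genes. In the secretory cells 1 was lower in both libraries, and over all chosen cells 0. Cd44, a hyaluronan receptor, stood at 171.0 and 155.9 CPM against 23.3 and 22.4, Selplg, the P-selectin ligand, at 143.7 and 243.2 against 34.4 and 32.8, and Cd24a at 442.5 and 904.1 against 168.5 and 176.9. Itga4, the integrin alpha 4 chain, was found in 35 of 41 and 9 of 9 cells. Itgb7, its partner in the gut-homing integrin, was found in 5 of 41 and 7 of 9 cells. With each cell thinned to 7000 non-immunoglobulin UMIs, a setting chosen after the data were seen, it was in 4 of 38 and 5 of 9 (10.5%, exact interval 2.94 to 24.8, and 55.6%, 21.2 to 86.3). Without butyrate 3 Ighm cells, 1 Ighg2b cell and the Igha cell held it and none of the 23 Ighg1 and Ighg2c cells did. That Ighg2b cell, with 4 Itgb7 UMIs, also held T cell markers at 3043 CPM, whose part was not tested. With butyrate 5 of 6 Ighm cells held Itgb7.

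Surface and maturation genes were higher in 9 of 11 cases, with medians of 2.69 and 2.72 (9 genes, 2.64 and 1.99 over all chosen cells). Ly6c2, a glycolipid-anchored protein that marks plasma cells in mice, stood at 3286 and 1228 CPM against 26.5 and 8.92, and was found in 39 of 41 and 7 of 9 cells. Slamf7, a surface receptor of plasma cells, was found in 41 of 41 and 8 of 9 cells, at ratios of 2.69 and 3.14, and Epcam, an adhesion molecule, at 3.08 and 1.78. Cd93, linked to long-lived plasma cells, had UMIs in 11 of 41 and 1 of 9. Of 7 counted survival genes 2 were higher, Cd28 and Pim1, a share near the 21.5% of all genes. Cd28 with butyrate was 5 UMIs in 1 cell, and over all chosen cells Pim1 alone was called. Pim1, a kinase, was 2.15 and 2.28 above other B cells, Mcl1, on which plasma cells depend, had UMIs in every secretory cell at 0.29 and 0.41, and Bcl2 was at 12.9 and 37.4 CPM against 145.2 and 128.6.

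Between the libraries, summed secretory genes were alike in the secretory cells and the response genes were not. These cells were chosen by Xbp1, which builds the secretory apparatus, so likeness in secretory genes may be part of the choice. Among secretory cells the log2 ratio, with over without butyrate, of summed secretory CPM was −0.01 (counting interval −0.04 to 0.01), of MHC class II −0.05 (−0.15 to 0.04) and of cell cycle genes 0.05 (−0.06 to 0.17). The last value sums lists that went opposite ways, S phase genes at −0.91 (−1.22 to −0.62), with 11 of 11 counted genes below 0, and genes of G2 and mitosis at 0.30 (0.17 to 0.43), with 6 of 18 below 0, against 1154 of all 2498 genes. Per secretory cell, S phase CPM ranged from 0 to 3538 with a median of 304.3 without butyrate. With butyrate it ranged from 0 to 1593, with 368.8 in the middle cell of 9, so the lower sum was not seen in the middle cell. Over all chosen cells, the 7 others included, secretory, MHC class II and cell cycle genes stood at −0.74, 0.70 and 0.78, and the S phase and G2 and mitosis lists at 0.30 and 0.94. Of the 2498 genes, 2.64% were 2-fold or more higher and 4.0% lower with butyrate among secretory cells, and 6.12% and 4.16% over all chosen cells. No secretory gene group had a summed ratio beyond 0.26 in either direction; single genes did, as Txndc5, a disulfide isomerase, at 1145 and 2644 CPM (1.20) and Dnajb9 at 297.4 and 93.5 CPM (−1.57). In the Ighm cells alone, described below, they stood at 0.34 (0.11 to 0.57) and −0.81 (−1.89 to 0.05).

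Immediate early and stress genes were lower with butyrate, at a summed ratio of −1.25 (−1.36 to −1.15) among secretory cells and −1.45 over all chosen cells, while in other B cells it was 0.11. Jun ranged from 0 to 195 UMIs with a median of 54 without and from 0 to 58 with a median of 7 with butyrate, and stood at 3092 and 760.7 CPM (−2.01) against 410.3 and 434.6 in other B cells. Fosb was found in 37 of 41 cells and in 1 of 9. Zfp36, which destabilizes cytokine mRNA, had a ratio of −2.15 and Dusp1, a MAP kinase phosphatase, −2.37. The ranges of Jun overlapped between the libraries. Against other B cells none of the 12 counted genes of the list was higher in both libraries and 1, Junb, was lower. Genes of this list also respond to tissue dissociation, whose part was not tested.

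Klf2, the factor that drives S1pr1, was lower too, at 1078 and 374.1 CPM (−1.50), in 36 of 41 and 7 of 9 cells, and Cd69, which retains cells in the node, at 311.8 and 93.5 (−1.64). S1pr1 itself was at 11.5 and 12.5 CPM. Listed with them, these genes had a summed ratio of −1.51 (−1.86 to −1.18) among secretory cells, −0.52 (−0.71 to −0.34) over all chosen cells and 0.16 in other B cells. Interferon response genes had −1.07 (−1.37 to −0.79), and −1.37 over all chosen cells, with the 1 of 5 counted genes above other B cells in both libraries, Bst2, a tethering protein of virus particles, at 1009 and 455.1 CPM, against −0.59 in other B cells.

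Since the classes differed between the libraries, the 11 and 6 Ighm cells were compared alone, a choice made after the data were seen. Early response genes had a ratio of −0.76 (−0.90 to −0.62), smaller than the −1.25 of all secretory cells, with Jun at 1785 and 858.4 CPM and Fosb at 87 UMIs in 9 of 11 cells and 0 in 6. Most other members were also below 0. Hspa8, a constitutive chaperone of the cytosol, stood at −1.42 (−1.88 to −1.02), Fos at −0.53 (−0.83 to −0.24) and Junb at −2.31 (−8.66 to −0.62). Hspa1a had 25 UMIs without and 0 with butyrate. The intervals of Zfp36 (−0.64), Dnajb1 (−0.51) and Ier2 (−0.24) reached above 0. Jund, at 0.01, and Egr1, at 0.13, were not lower. S phase genes stood at −0.94 (−1.27 to −0.62) and genes of G2 and mitosis at 0.58 (0.42 to 0.73). The Klf2 list had −1.17 (−1.57 to −0.78) and interferon genes −0.95 (−1.39 to −0.53). Surface and maturation genes stood at −1.33 over all chosen cells, −0.94 over secretory cells and 0.08 (−0.02 to 0.19) over Ighm cells. Slpi belongs to this list, and without it the value over secretory cells was −0.38 (−0.46 to −0.29), a setting also chosen after the data were seen. In Ighm cells Ly6a, a surface protein of activated lymphocytes and a member of the list, stood at 1994 and 2113 CPM. Itgb7 stood at 22.3 and 82.5 CPM in Ighm cells, from 5 and 10 UMIs, a ratio of 1.52 (0.2 to 3.79). Xbp1, by which these cells were chosen, stood at 1383 and 3087 CPM, which describes the choice and is not a result. With butyrate 1 Ighm cell held 178 of their 374 Xbp1 UMIs. For Slpi, Cxcr3 and Cd28, class and treatment cannot be told apart, since no Ighg1 or Ighg2c secretory cell was found with butyrate.

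The genes chosen by rank were led in the secretory cells with butyrate by Zyx, a focal adhesion protein, at 31.6 and 187.0 CPM, Itgb7, Scd2, a fatty acid desaturase, Rnase6 and Crip1. Crip1 had a median of 8 UMIs with butyrate and 308 in its highest cell, most of its UMIs there, so its place rests on 1 cell. Those lowest with butyrate were Tsc22d3, a glucocorticoid-induced factor, at 214.1 and 31.2 CPM (−2.44), Dusp1, Hist1h2bc, B930036N10Rik and Fosb. Over all chosen cells the highest were Lsp1, S100a6, Stx7, Gimap7 and Vim, and the lowest Trbc2, a T cell receptor constant gene, with 0 UMIs with butyrate, Jun and Cd28. Lsp1 fell from 596.9 CPM over all 13 cells with butyrate to 124.7 in the 9 secretory cells.

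**Figure D5:**
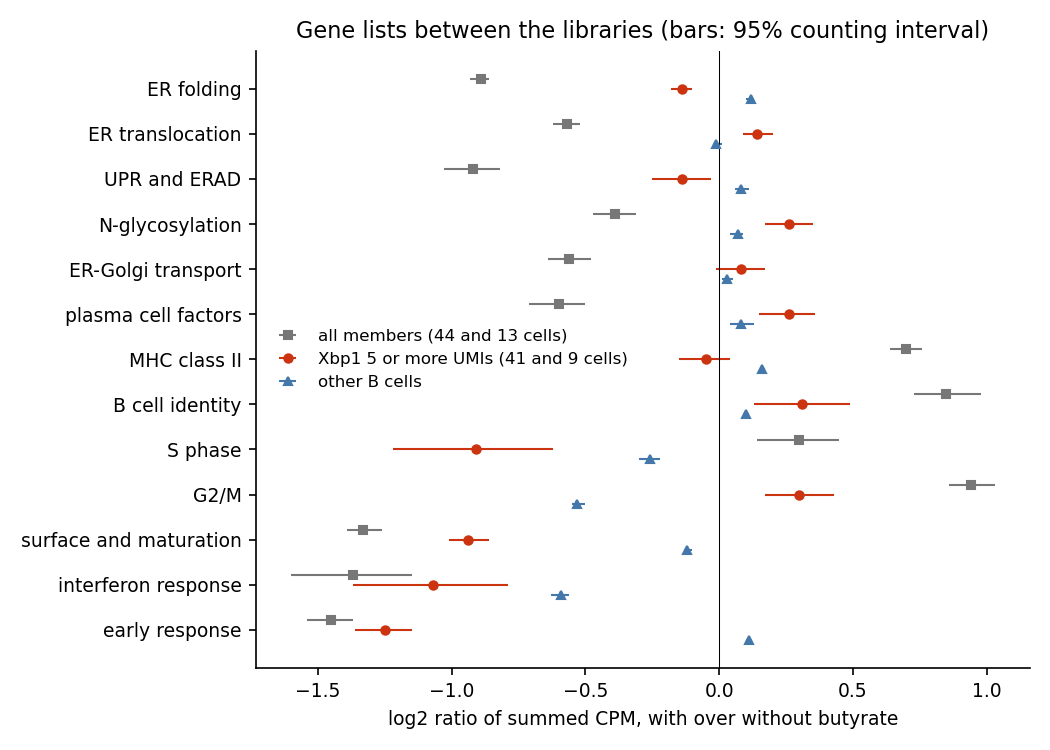
Log2 ratio of summed CPM, with over without butyrate, for 13 gene lists in all chosen cells (squares, 44 and 13 cells), secretory cells (circles, 41 and 9) and other B cells (triangles), with 95% counting intervals that hold no variation between mice. Secretory lists lie near 0 in secretory cells, and early response (−1.25) and interferon response (−1.07) lie below.

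Markers of other cells were few in the secretory cells. The 9 T cell markers summed to 111 UMIs without butyrate (159.5 CPM, led by Trbc2 with 41, and 5 of Cd3e) and 2 with (12.5 CPM). They reached 1372 and 3043 CPM in 2 Ighg2b cells, which held 19 and 1 Cd28 UMIs and 0 and 4 Itgb7 UMIs. The part of T cell RNA in these Cd28 and Itgb7 values was not tested. In the secretory cells without and with butyrate natural killer markers summed to 5 and 0, myeloid markers to 46 and 5, dendritic cell markers to 3 and 0, neutrophil markers to 2 and 1, erythroid markers to 1 and 2, stromal or endothelial markers to 14 and 3, and mast cell or basophil markers to 0 and 0. The markers of plasmacytoid dendritic cells summed to 704 and 76 UMIs, of which Bst2 gave 702 and 73, and their defining gene Siglech was at 0. No chosen cell had over 10% mitochondrial UMIs or fewer than 200 genes.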

How the data were processed

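Cells of the mediastinal lymph node were measured in 2 droplet libraries (3′ tags, 1 library of 4 pooled mice per group), so no group had a replicate. The authors deposited raw UMI counts per gene and cell for 31053 genes; the submitters' processing notes name Cell Ranger 6.0.1 and the build mm10. No cell filter was applied. Members and gene lists were chosen with earlier results of these data known.

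UMIs were scaled to CPM of non-immunoglobulin UMIs, with 10 CPM added for log2 ratios, in Python 3.11.15 (numpy 2.4.6, pandas 2.3.3, scipy 1.17.1). Genes with 50 or more UMIs in the chosen cells (2498) were compared, and called at 2-fold or more. The text names listed genes, the 15 highest and 10 lowest ratios over other B cells, by the library nearer 0, and the 10 highest and lowest ratios between libraries among genes at 100 CPM or more with no cell holding over 50% of the UMIs, counted over all chosen cells. Genes by heavy chain class were chosen after their values were seen. Intervals are exact Poisson or binomial (Clopper-Pearson) at 95% and cover counting error only. Doublets were scored with Scrublet in scanpy 1.11.5 as an alternative, which left out 0 and 1 chosen cells. Scripts were tested on simulated data. Promoters were RefSeq sequences of GRCm38.p6. Some listed genes are not reported here.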

Additional observations from a re-analysis of the deposited data

Results flagged for a closer look

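Some gene lists moved in the chosen cells and not, or the other way, in the other B cells of the same libraries. The immediate early and stress genes had a log2 ratio, with over without butyrate, of −1.45 over all chosen cells and −1.25 in those with 5 or more Xbp1 UMIs, against 0.11 in other B cells. That ratio was smaller in Ighm cells with 5 or more Xbp1 UMIs, at −0.76, and with both Sdc1 and Tnfrsf17, at −0.48. The list of Klf2, Cd69 and the sphingosine phosphate receptors had −1.51 in cells with 5 or more Xbp1 UMIs and −0.52 over all chosen cells, against 0.16. With 1 library per group these differences were not tested.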

How the results depend on the processing

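No paired analysis was possible because each group had 1 library, and for the same reason no library could be left out. The ratio of the shares of chosen cells (−1.64) kept its direction in the 7 alternatives run, at −2.07 with 5 or more Xbp1 UMIs, −0.76 in Ighm cells and −1.88 to −1.54 in the 5 others. The settings that need 5 or more Xbp1 UMIs, alone, with Ighm or without Slpi, and thinning to 7000 UMIs were chosen after seeing the data; requiring both Sdc1 and Tnfrsf17 left 16 and 4 cells. Depth limits low genes, and the 9 and 13 cells with butyrate limit every comparison between libraries. For each change given here, the cause was not tested.

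In the order Scrublet, both partners, no other-lineage UMIs, 5 or more Xbp1 UMIs, Ighm cells and all UMIs as the denominator, the between-library ratio of secretory genes (−0.74) was −0.63, 0.10, −0.14, −0.01, 0.02 and −0.50, that of MHC class II genes (0.70) was 0.63, −0.91, −0.10, −0.05, 0.17 and 0.93, and that of early response genes (−1.45) was −1.37, −0.48, −1.05, −1.25, −0.76 and −1.21. Cell cycle genes (0.78) gave −1.50, 0.54, 0.05, 0.25 and 1.02 in that order without Scrublet. With a mean over cells, secretory, MHC class II and cell cycle ratios were −0.44, 0.15 and 1.24, and without the top cell −0.87, 0.46 and 0.68. Without ribosomal and mitochondrial genes the secretory ratio was −0.70. MHC class II genes with at least 10 Jchain UMIs per cell gave 0.59.

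Against other B cells, the MHC class II median without butyrate (−2.77) was −3.45 in Ighm cells. With butyrate (−1.44) it was −3.58 with both partners, −3.42 without other-lineage UMIs, −3.33 with Xbp1, −3.19 in Ighm cells and −1.83 over all UMIs. The secretory median without butyrate (2.39) was 2.86 among genes with 200 or more UMIs and 1.79 over all UMIs. With butyrate (1.84) it was 2.44, 2.49, 2.48 and 2.52 in the same 4 subsets, 2.14 at 200 or more UMIs and 1.46 over all UMIs. The cycling share without butyrate (52.3%) was 30.2% thinned and 81.8% in Ighm cells. The number of genes higher with butyrate (153) was 66 with Xbp1 and 243 over all UMIs, and of genes lower (104) it was 345 with both partners, 195 without other-lineage UMIs and 69 over all UMIs. Beside the sign changes above, those of ratios past 2-fold over all chosen cells were surface and maturation genes, at 0.08 in Ighm cells, Gimap4 and Gimap7, at −1.95 each with both partners, and Ms4a1, at −0.44 without other-lineage UMIs.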

Other observations

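Variable genes were assigned where the leading heavy and the leading light variable gene each had 5 or more UMIs and 80% or more of their kind, which held for 30 of 41 secretory cells without and 6 of 9 with butyrate. Without butyrate 3 pairs of genes recurred, in 7 cells. Ighv1-42 with Iglv1 was in 3 Ighg1 cells, Ighv1-81 with Igkv3-7 in 2 Ighg2c cells, and Ighv1-22 with Iglv1 in the Igha and the Ighg3 cell. With butyrate no pair recurred. Ighv11-2 with Igkv14-126, a pair known from B-1a cells that bind phosphatidylcholine, was in 1 Ighm cell of each library. Whether cells with 1 pair share a clone was not tested, since junction sequences were not analysed here.

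Metabolic genes were higher than in other B cells in 4 of 14 cases, with medians of 0.82 and 0.95, near the 21.5% of all genes (5 of 14 over all chosen cells). They included Phgdh, an enzyme of serine synthesis, at log2 ratios of 2.54 and 2.06, and Cycs, which encodes cytochrome c, at 1.77 and 1.76. Autophagy genes were higher in 1 of 5 cases, also near the 21.5% of all genes, and in 0 over all chosen cells. Of 14 cytokines only Ltb had enough UMIs, and it was lower, at 83.3 and 31.2 CPM against 965.5 and 980.4 in other B cells. Il10, an inhibitory cytokine, had UMIs in 7 of 41 and 2 of 9 secretory cells. Of the 5 counted genes listed under cell cycle exit 1 was higher, again near the 21.5% of all genes, and 1 was lower. The higher gene was Ccnd2, which encodes cyclin D2, a G1 cyclin, and the lower was the anti-proliferative Btg1. Neither call is therefore read as exit from the cycle.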
